A study of Mus musculus with 9 samples.

Results

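B1, B1F and B2 are the short interspersed elements (SINEs) counted by name in libraries of high-salt recovered sequences (HRS) from mouse embryonic stem cells. They were taken as the rows with exactly these Repbase names, 3 of the 312 names that occurred in at least 1 library. The study extracted nuclei of E14Tg2a cells at high salt and cut the DNA with the restriction enzyme StyI. DNA that stayed with the insoluble nuclear material is the HRS fraction, DNA that was released is the Loop fraction, and input is unfractionated genomic DNA. All 9 libraries came from the same untreated line of 129P2 background, grown on gelatin with LIF, and no allele or agent sets one group apart from another. There were 3 HRS libraries (replicates 1, 2 and 3), 3 Loop libraries (replicates 1, 2 and 3) and 3 inputs, titled D0, D12 and D21, titles that the labels do not explain. The labels do not say whether replicates are separate cultures, and the spread behind each p-value may therefore be technical.

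SINEs are short repeats that encode no protein and are copied through an RNA by the enzymes of LINE-1 elements. B1 descends from 7SL RNA, the RNA of the signal recognition particle, and is the rodent relative of the human Alu element. B2 descends from a transfer RNA, and both families carry an internal promoter for RNA polymerase III. B1F is a name for an older form of B1. In the mouse genome SINEs lie mostly in gene-rich DNA, while LINE-1 elements and satellites lie mostly in gene-poor DNA.

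For each library there are counts over StyI fragments (mm9) and, in a second table, counts over repeat names. The fragment tables held 39.1 to 52.5 M counts in HRS, 58.7 to 62.9 M in Loop and 55.2 to 62.2 M in input. The repeat tables held 1.68 to 2.54 M, 2.27 to 2.62 M and 2.49 to 2.67 M in the same order, or 3.61% to 4.85% of the fragment counts. Members are given on 2 scales, as a share of the repeat table and as counts per M of the total of the fragment table of the same library (fragment-scaled CPM). Counts depend on the number of copies and StyI ends of a name. Ranks, sums and count ratios of different names therefore describe the tables only, and are not read as differences in retention between names. Sampling error is small, with a half-width of the 95% Wilson interval of at most 0.606% of the value for B1, 1.73% for B2 and 2.86% for B1F. These intervals cover counting error only, as amplified tags are not independent molecules.

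The repeat tables stood apart by the letter in their file names. In replicate 2 the letters of HRS and Loop are the reverse of those in replicates 1 and 3. The letter is A for Loop replicate 2 and for HRS replicates 1 and 3. It is B for HRS replicate 2 and for Loop replicates 1 and 3. Of the inputs D21 carries A, D0 carries B and D12 has none, and what the letter means is not stated. In the share of counts on short fragments the fragment tables did not divide this way. No other profile of these tables was compared by letter. Fragments of up to 200 bp held 28.9% to 32.0% of the counts in the HRS libraries, against 46.8% to 55.6% in the Loop libraries. HRS replicate 2 had 29.3% and Loop replicate 2 had 52.8%, each within the range of its own fraction. Results are therefore given with the letter as a term and without the replicate 2 tables. Without these 2 tables each fraction has 1 letter only, and its effect and that of the letter cannot be told apart.

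B1, the most counted of the SINE names, took 6.21%, 3.96% and 6.69% of the repeat table in HRS replicates 1, 2 and 3. In Loop replicates 1, 2 and 3 it took 4.19%, 5.89% and 3.91%. In the D0, D12 and D21 inputs it took 4.86%, 4.73% and 4.64%. The fractions overlapped: HRS replicate 2 lay below Loop replicates 1 and 2, and the inputs lay between the high and the low fraction libraries. By count, B1 was the third name of each letter A fraction table, the fourth name of each input table, and stood at rank 6 or 7 in the letter B fraction tables. The coefficient of variation over the libraries of a group was 25.9% in HRS, 23.1% in Loop and 2.35% in input, against counting errors of about 0.29% in each group. The inputs are not titled as replicates.

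B2 took 0.757%, 0.538% and 0.768% of the repeat table in HRS replicates 1, 2 and 3. In Loop replicates 1, 2 and 3 the share was 0.551%, 0.724% and 0.494%, and in the D0, D12 and D21 inputs it was 0.659%, 0.600% and 0.573%. The same 3 fraction libraries were high and the same 3 were low as for B1. The 9 libraries fell in the same order for B1 and B2, with HRS replicate 3 at the top and Loop replicate 3 at the bottom.

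B1F spanned a smaller range over the 9 libraries than the other members. It took 0.257%, 0.239% and 0.279% of the table in HRS replicates 1, 2 and 3, and 0.220%, 0.250% and 0.220% in Loop replicates 1, 2 and 3. The D0, D12 and D21 inputs held 0.230%, 0.228% and 0.201%. The highest library exceeded the lowest by 1.39-fold for B1F, against 1.71-fold for B1 and 1.55-fold for B2. Among the inputs alone the coefficient of variation of B1F (7.31%) was close to that of B2 (7.15%) and above that of B1. HRS replicate 2, low for B1 and B2, lay above Loop replicates 1 and 3 and all inputs for B1F.

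**Figure D1:**
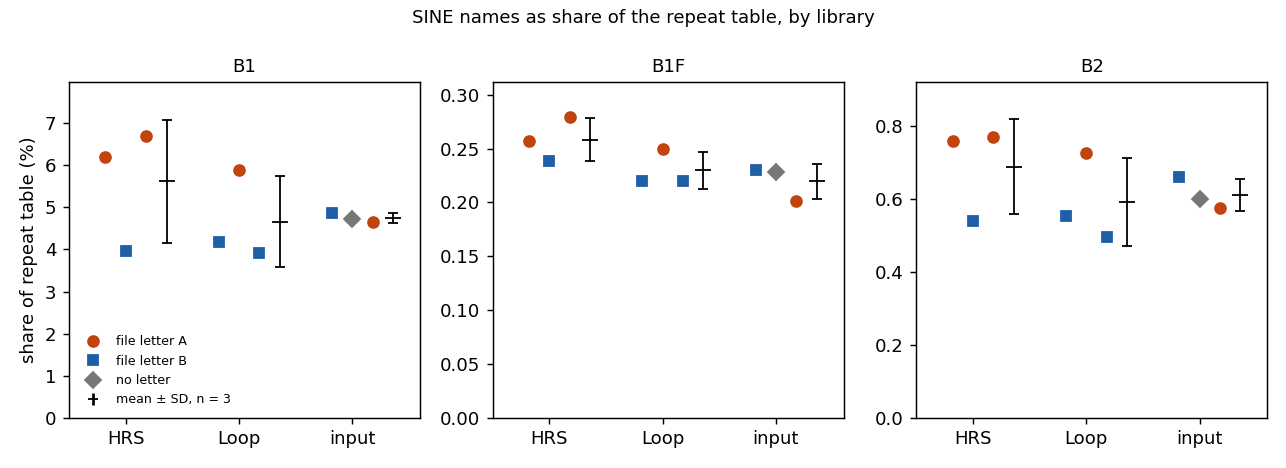
Share of the repeat table (%) held by B1, B1F and B2 in each library, with HRS, Loop and input from left to right, markers for the file letter, and the mean ± SD (n = 3) beside each group. The letter A fraction libraries lie above the letter B ones in each panel (B1: 5.89% to 6.69% against 3.91% to 4.19%), as for 79 of 288 names (27.4%). The D21 input, also of letter A, is the lowest input.

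The first comparison asked whether the SINE names were richer in DNA kept at high salt than in DNA released from the nuclei. Unless other totals are named, edgeR log2 ratios are of repeat counts scaled by TMM, which adjusts each repeat table total by a factor. None of the 3 members passed the test. B1 averaged 5.62% ± 1.46 (SD, n = 3) in HRS and 4.66% ± 1.08 (SD, n = 3) in Loop, and its log2 ratio was 0.25 ± 0.23 (SE). B2 averaged 0.688% ± 0.130 in HRS, with 0.590% ± 0.120 in Loop (log2 ratio 0.20 ± 0.18). B1F averaged 0.258% ± 0.0203 in HRS and 0.230% ± 0.0171 in Loop (log2 ratio 0.15 ± 0.09). Each had an adjusted p of 0.975 in the edgeR quasi-likelihood test over 289 names, with Benjamini-Hochberg adjustment. The test called 0 names (0% of those tested), with 2 at an unadjusted p under 0.05, and DESeq2 called 0, with 3 under 0.05. The median log2 ratio was 0.20 over the 3 members and -0.0013 over all names tested.

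With the letter as a term the differences between HRS and Loop were smaller still with TMM scaling. The log2 ratios of HRS over Loop were 0.05 ± 0.09 for B1, 0.06 ± 0.08 for B2 and 0.11 ± 0.09 for B1F (SE, adjusted p 0.993 each in edgeR), and 0 names (0%) were called, with 3 at an unadjusted p under 0.05. Within letter A, B1 took 6.45% in HRS (mean of replicates 1 and 3) and 5.89% in Loop (replicate 2). Within letter B it took 3.96% in HRS (replicate 2) and 4.05% in Loop (mean of replicates 1 and 3). The difference between the letters in HRS over Loop was tested as an interaction, and for B1 it had an adjusted p of 0.967 and for B1F and B2 of 0.998. It was called for 1 name (0.346%), RLTR6B_Mm, named here as the only call. This test has 2 residual degrees of freedom and rests on lone tables, Loop replicate 2 in A and HRS replicate 2 in B, which are assumed to vary like the others, so it shows little about whether the letters differ. Without both replicate 2 tables the log2 ratios were 0.61 for B1 (adjusted p 0.000721), 0.49 for B2 (0.00529) and 0.22 for B1F (0.175), and 76 of 289 names were called (26.3%; 31 higher, 45 lower). That fit sets letter A against letter B and is no separate evidence on the fractions.

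Fragment-scaled values divide a repeat table by the fragment table of the same label. In replicate 2 the letters of the repeat tables are reversed, while its shares of fragment counts on short fragments lay within their own fractions. Whether the 2 tables of a label belong together was not tested. As labelled, B1F differed between the fractions on this scale with no overlap. It reached 114, 116 and 120 fragment-scaled CPM in HRS replicates 1, 2 and 3. It reached 91.5, 90.0 and 96.5 in Loop replicates 1, 2 and 3, and 98.5, 100.2 and 94.8 in the D0, D12 and D21 inputs. Every HRS library lay above every Loop and every input library, whatever its letter. Of 288 names with at least 100 counts in all, 59 (20.5%) lay higher in every HRS than in every Loop library on this scale, so B1F was 1 of many. Every HRS library was above every input library on this scale for 43 names (14.9%). HRS averaged 117 ± 2.91 and Loop 92.7 ± 3.39 (SD, n = 3 each). The edgeR log2 ratio was 0.33 ± 0.10 (SE, adjusted p 0.43), beside a median of 0.18 over all names, and 0 names (0%) were called with 25 at an unadjusted p under 0.05.

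B1 had 2762, 1919 and 2871 fragment-scaled CPM in HRS replicates 1, 2 and 3, against 1743, 2125 and 1713 in Loop replicates 1, 2 and 3. The inputs held 2085 (D0), 2079 (D12) and 2188 (D21). Loop replicate 2 lay above HRS replicate 2, so the fractions overlapped. Within each letter HRS was the higher, by 1.33-fold in A (2816 against 2125) and by 1.11-fold in B (1919 against 1728).

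B2 had 337, 261 and 330 fragment-scaled CPM in HRS replicates 1, 2 and 3, against 229, 261 and 217 in Loop replicates 1, 2 and 3. The D0, D12 and D21 inputs held 282, 264 and 270. HRS replicate 2 (260.6) and Loop replicate 2 (261.1) were nearly equal. Within letter A the mean of B2 was 1.28-fold higher in HRS than in Loop, and within letter B 1.17-fold. For B1F these within-letter ratios were 1.30 and 1.23.

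With fragment totals and the letter as a term together, a fit added once the values had been seen, HRS exceeded Loop by a log2 ratio of 0.34 ± 0.09 for B1F, 0.29 ± 0.09 for B2 and 0.28 ± 0.10 for B1 (SE). Their adjusted p were 0.0646, 0.0646 and 0.0756, so none passed the threshold of 0.05. Without both tables of replicate 2, the log2 ratios on fragment totals were 0.70 for B1 (adjusted p 0.000666), 0.58 for B2 (0.00263) and 0.32 for B1F (0.0594), again with letter A set against letter B, and 69 of 289 names (23.9%) were called. The fit with the letter as a term called 0 of 289 names (0%) in edgeR, with 114 at an unadjusted p under 0.05. The median over all names was itself 0.24. Relative to that median the members differed by 0.10 (B1F), 0.05 (B2) and 0.04 (B1), and they stood at ranks 56, 96 and 105 of 289 from the most to the least HRS-rich name. The repeat table itself was 4.53% ± 0.285 of the fragment counts in HRS against 4.05% ± 0.402 in Loop (SD, n = 3 each; exact two-sided permutation p = 0.2, adjusted 0.55 over 11 such tests). Loop replicate 2 had the smallest table, at 3.61%.

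**Figure D2:**
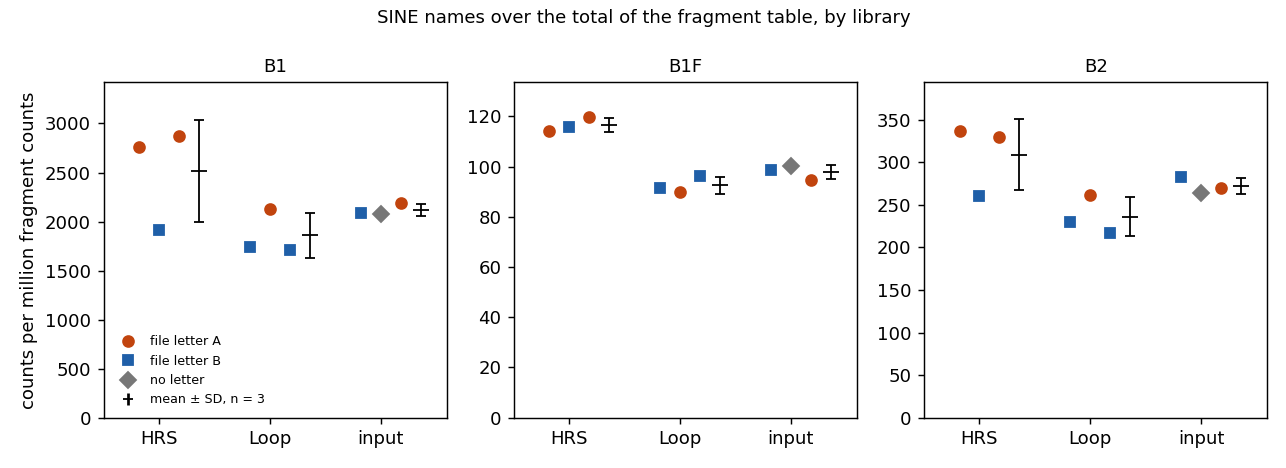
Fragment-scaled CPM of B1, B1F and B2 (counts per M of the total of the fragment table of the same library), with HRS, Loop and input from left to right, markers for the file letter, and the mean ± SD (n = 3) beside each group. For B1F all HRS libraries (114 to 120) lie above all Loop (90.0 to 96.5) and input (94.8 to 100.2) libraries, while for B1 and B2 HRS replicate 2 lies with the Loop libraries. On this scale 59 of 288 names (20.5%) lie higher in every HRS than in every Loop library, and 43 (14.9%) than in every input library.

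The comparisons with input asked how the SINE shares of each fraction stood relative to whole genomic DNA. In HRS over input the log2 ratios were 0.30 ± 0.17 for B1, 0.29 ± 0.09 for B1F and 0.23 ± 0.14 for B2 (SE). The adjusted p were 0.367, 0.137 and 0.391 in edgeR, which called 0 of 291 names (0%), with 54 at an unadjusted p under 0.05. DESeq2 called 25 of the same 291 names, with 60 at an unadjusted p under 0.05. B1F was among the 25, with a log2 ratio of 0.28 and an adjusted p of 0.0487. On the share scale B1F was higher in every HRS than in every input library, as were 38 of 288 names (13.2%). B1 and B2 were not, because HRS replicate 2 lay below every input. Without HRS replicate 2 all 3 members passed the threshold, B1 at 0.48 (adjusted p 0.00178), B2 at 0.36 (0.00942) and B1F at 0.33 (0.0139), and 70 names (24.1%) were called. Both HRS libraries left in that fit are of letter A, while the inputs carry A, B and none. Against the input of the same letter, HRS over input was 1.39 for B1, 1.33 for B1F and 1.33 for B2 in shares of letter A (HRS replicates 1 and 3 over D21). In letter B (HRS replicate 2 over D0) it was 0.814 for B1, 1.04 for B1F and 0.816 for B2, so B1 and B2 had opposite directions in the letters. With the letter as a term and D12 left out, B1F stood at 0.31, B1 at 0.19 and B2 at 0.16 (adjusted p 0.332, 0.63 and 0.687), values that for B1 and B2 average over these opposite directions.

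In Loop over input none of the members passed the test and their direction was not stable. With TMM scaling the log2 ratios were 0.14 ± 0.08 for B1F, 0.05 ± 0.14 for B1 and 0.02 ± 0.13 for B2 (SE, adjusted p 0.317, 0.838 and 0.903 in edgeR). On repeat table totals, the scale of the shares, they were 0.065 for B1F, -0.026 for B1 and -0.050 for B2. Of 288 names 0 were called (0%), with 75 at an unadjusted p under 0.05, and DESeq2 called 37 (83 under 0.05), none of them a SINE name. On fragment totals the log2 ratios of Loop over input were -0.08 for B1F, -0.19 for B1 and -0.21 for B2, beside a median of -0.19 over all names. On that scale 27 names (9.38%) were called, all lower in Loop, and none was a SINE name. B2 in fragment-scaled CPM was nevertheless lower in every Loop (217 to 261) than in every input library (264 to 282), as were 117 of 288 names (40.6%). Without Loop replicate 2 the values with TMM scaling were -0.13 for B1, -0.12 for B2 and 0.10 for B1F. None of the members passed there (adjusted p 0.134, 0.280 and 0.361 in edgeR), while 116 of 288 names were called. Both Loop libraries left in that fit are of letter B, while the inputs carry A, B and none. Without the D21 input B2 stood at -0.016. Against the input of the same letter, Loop over input in shares was 1.27 for B1, 1.24 for B1F and 1.26 for B2 in letter A, and 0.832, 0.957 and 0.794 in letter B. HRS over input and Loop over input share the 3 inputs, so their values are not independent.

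**Figure D3:**
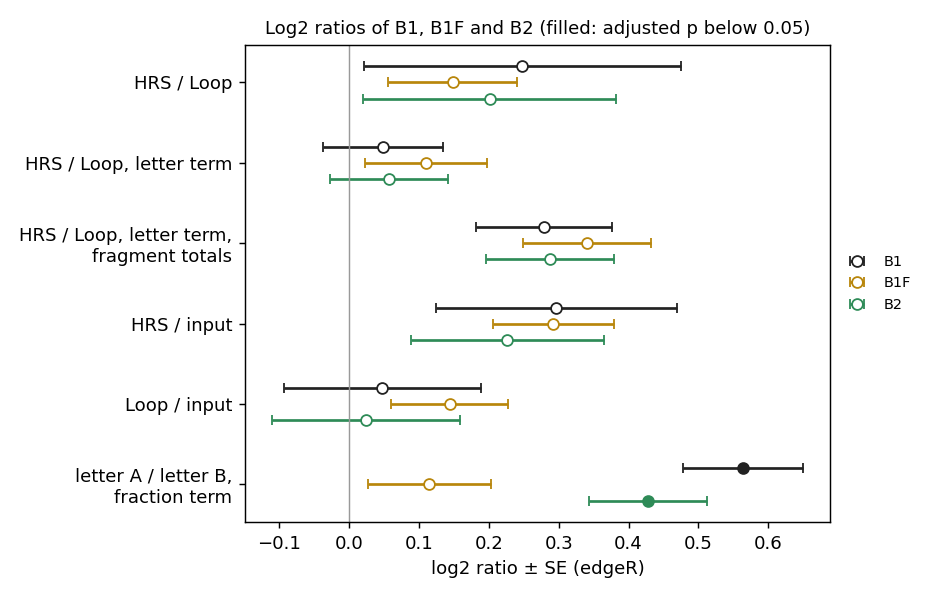
Log2 ratios ± SE of B1, B1F and B2 from edgeR in 6 comparisons or settings, with filled points for an adjusted p under 0.05. Only B1 (0.56) and B2 (0.43) between the file letters are filled. With the letter as a term and TMM scaling, HRS over Loop lies near 0 for B1 (0.05) and B2 (0.06). With the letter as a term and fragment totals it lies at 0.28 for B1, 0.29 for B2 and 0.34 for B1F, all unfilled.

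The clearest division of B1 and B2 ran between the file letters. In replicates 1 and 3 letter A is HRS and letter B is Loop, so only the replicate 2 tables separate letter from fraction. Whether these 2 tables carry the right fraction label was not tested. If they were exchanged, the division by letter would be that by fraction. With fraction as a term, B1 was 1.48-fold higher in letter A than in letter B (log2 ratio 0.56 ± 0.09 SE, adjusted p 0.000538) and B2 was 1.35-fold higher (0.43 ± 0.08, adjusted p 0.00319). For B1F the value was 0.11 ± 0.09 (adjusted p 0.368), and -0.02 on fragment totals. In shares, B1 averaged 6.26% ± 0.401 in the letter A and 4.02% ± 0.151 in the letter B fraction tables (SD, n = 3 each), and B2 averaged 0.750% ± 0.0227 in letter A and 0.528% ± 0.0299 in letter B. All 3 members lay higher in every A than in every B fraction table, as did 79 of 288 names (27.4%). Of 289 names 94 (32.5%) were called between the letters, 38 higher (13.1%) and 56 lower (19.4%) in A. By repeat table totals 45 were higher and 39 lower, and by fragment totals 22 were higher and 83 lower (36.3% called), where B1 stood at 0.43 (adjusted p 0.00487) and B2 at 0.29 (0.0276). Without HRS replicate 2, the only HRS table of letter B, B2 stood at 0.42 (adjusted p 0.0507). Without HRS replicate 1 or 2 the number of names called was 55 or 47.

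Other repeat classes moved between the letters in both directions. The satellites GSAT_MM and SATMIN, the major and minor satellite of mouse centromeric regions, were 6.78-fold and 5.56-fold higher in A. Of 33 tested names that start with L1, a prefix of LINE-1 names, 15 were lower in A and 0 were higher, with a median log2 ratio of -0.26. Names that start with LX were not in this list. The median was 0.43 over the 3 SINE names and -0.01 over all names tested. Shares within a table sum to a whole, so a gain of some names lowers the shares of others. In shares, the inputs did not have the direction of the letter for the SINE names. The D21 input (A) held less B1 (4.64% against 4.86%), less B2 (0.573% against 0.659%) and less B1F (0.201% against 0.230%) than the D0 input (B), although it held more GSAT_MM (2.09% against 0.884%). In fragment-scaled CPM the D21 input was higher than D0 for B1 (2188 against 2085) and lower for B2 (270.2 against 282) and B1F (94.8 against 98.5). The part of the letter in any difference between the fractions was not tested beyond these fits.

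**Figure D4:**
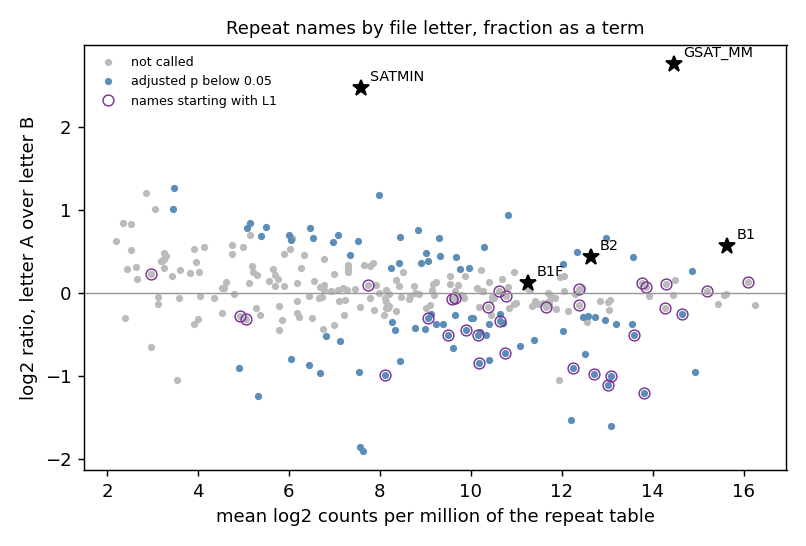
Log2 ratio of letter A over letter B, with fraction as a term, against the mean log2 CPM of the repeat table for 289 names. Stars mark B1, B1F, B2 and the satellites, and rings the names that start with L1. B1 (0.56) and B2 (0.43) lie above 0, far below the satellites, while 15 of 33 names that start with L1 were called below 0 and none above.

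Ratios of counts within a table do not depend on any scaling. B1F counted 4.14, 6.03 and 4.18 per 100 counts of B1 in HRS replicates 1, 2 and 3, and 5.25, 4.23 and 5.63 in Loop replicates 1, 2 and 3. The D0, D12 and D21 inputs had 4.72, 4.82 and 4.33. All letter A tables, the D21 input included, had between 4.14 and 4.33, and all other tables between 4.72 and 6.03. In the fraction tables B1 was called between the letters and B1F was not, so this ratio is no separate evidence of a split. How many other pairs of names divide by letter was not counted. Between the letters of the fraction tables the mean log2 ratio differed by -0.43, the smallest exact two-sided permutation p that 3 against 3 can give being 0.1, which it reached (adjusted 0.55 over 11 tests). Between HRS and Loop it differed by -0.09 (exact permutation p = 0.8, adjusted 0.88).

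B2 counted 12.2, 13.6 and 11.5 per 100 counts of B1 in HRS replicates 1, 2 and 3, and 13.2, 12.3 and 12.7 in Loop replicates 1, 2 and 3. The D0, D12 and D21 inputs had 13.5, 12.7 and 12.3. The range over the 9 libraries was narrower than that of B1F to B1. The mean log2 ratio of B2 to B1 differed by -0.04 between HRS and Loop (exact two-sided permutation p = 0.7, adjusted 0.856) and by -0.13 between the letters (exact p = 0.1, adjusted 0.55).

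**Figure D5:**
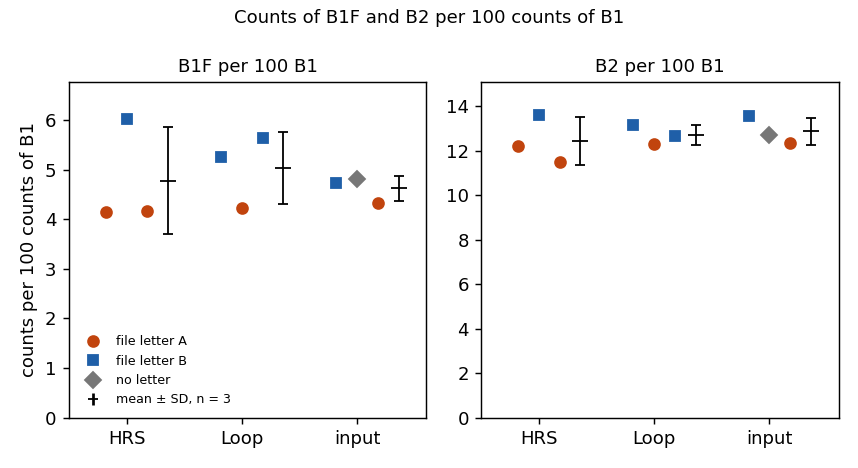
Counts of B1F (left) and B2 (right) per 100 counts of B1 in each library, with HRS, Loop and input from left to right, markers for the file letter, and the mean ± SD (n = 3) beside each group. B1F per 100 B1 is 4.14 to 4.33 in every letter A table and 4.72 to 6.03 in the others, while B2 per 100 B1 stays between 11.5 and 13.6. Ratios of other pairs of names were not compared by letter.

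The names most like each member were found by Pearson's correlation of the log2 share over the 9 libraries, among the other 140 names with a mean count of at least 1000. These values describe libraries that share their letter and fraction, and shares that sum to a whole. B1 was most like B2 (0.976), followed by ERVB2_1A-I_MM, named as the internal part of an endogenous retrovirus (0.965), and YREP (0.929). After B1, B2 was most like ERVB2_1A-I_MM (0.968) and RLTR1A2_MM, a long terminal repeat name (0.951). B1F was most like 3 other long terminal repeat names, RLTR31C_MM (0.945), RLTR31_MM (0.881) and RLTR31B_MM (0.844). Its correlation with B1 was 0.763 and with B2 0.771.

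These names were picked for their likeness over the same 9 libraries, so their split by letter follows from the choice and is given without a test. ERVB2_1A-I_MM took 0.0634%, 0.0321% and 0.0562% of the table in HRS replicates 1, 2 and 3, against 0.0349%, 0.0565% and 0.0332% in Loop replicates 1, 2 and 3. The log2 ratio of A over B was 0.75 for it and 0.48 for RLTR1A2_MM. Among the names like B1F, the ratio was 0.29 for RLTR31_MM, 0.20 for RLTR31C_MM and 0.03 for RLTR31B_MM.

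Of other SINE names 1 was present, BC1_Cp, named for the BC1 RNA, a neuronal transcript of RNA polymerase III. It had 1 count in HRS replicate 2, 2 counts in Loop replicate 1, 1 count each in the D0 and D21 inputs and 0 counts in the other tables, at or under the limit of 3 counts that a count of 0 allows. Summed, B1, B1F and B2 held 7.22%, 4.74% and 7.74% of the repeat table in HRS replicates 1, 2 and 3, against 4.96%, 6.87% and 4.62% in Loop replicates 1, 2 and 3. The D0, D12 and D21 inputs held 5.75%, 5.56% and 5.42%. B1 made up most of each sum, so the sum followed its order.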

How the data were processed

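The libraries hold short tags from the ends of StyI fragments. Per the labels' protocols a biotinylated adaptor was ligated to the StyI ends, captured on streptavidin and cut with MmeI. The software CASAVA 1.8.2 and the build mm9 are named per the submitters' processing notes. The aligner, the Repbase version and the treatment of tags that match several copies are, among the sources used here, not given; the last could move counts between B1 and B1F. The deposited values are whole-number counts per StyI fragment and per repeat name, with names at 0 left out. The 6 fraction tables print names in quotes and the inputs do not, so the tables were written in different ways.

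Shares were taken over the repeat table total and per M counts of the fragment table (CPM). Counts were tested with edgeR 4.0.16 in R 4.3.3 (glmQLFit, glmQLFTest), with TMM scaling, filterByExpr (minimum 10 counts) and a threshold of 0.05 on p-values adjusted by Benjamini-Hochberg over all names tested; all 3 members passed the filter. Each SE was obtained from the log2 ratio and its F statistic. Only the groups compared entered a fit. On simulated counts for HRS against Loop (289 names, 60 of them changed by a log2 ratio of 1 in either direction, dispersion 0.01) the fit recovered 96.7%, with 3 false calls. Those changes were larger than the members' log2 ratios of HRS over Loop, and no letter effect was simulated. The dispersion was a set value, not estimated from these libraries. In them the share of B1 had a coefficient of variation of 25.9% in HRS and 23.1% in Loop. The recovery does not show how often changes of the members' size would be called. Alternatives were median-of-ratios factors, table totals, no filter, DESeq2 1.42.0, a joint fit of 9 libraries, a replicate block, the file letter, and each library left out. Members, lists and tests were chosen with earlier results of these data known. The rule for other names took the SINE names, the satellites, the L1 names and the 3 names most correlated with each member. RLTR names came from that rule. No consensus sequence of the members was used here.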

Additional observations from a re-analysis of the deposited data

How the results depend on the processing

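Of 272 alternative values 230 were graded as the same. For members this meant the same direction and side of the threshold, and for numbers of names called a count within 1.5 times. Count ratios were graded on direction, and within the letters also on a shift under the larger SD. Their permutation p could not pass the threshold in any setting. With HRS against Loop, B1 reversed to -0.046 within letter B, and the 2 single-letter subsets, each setting 2 tables against a lone one assumed to vary alike, called 1 name each. Without both tables of replicate 2, edgeR called 76 names, with B1 at 0.61 and B2 at 0.49, and on fragment totals 69 names, with B1 at 0.70 and B2 at 0.58. Leaving out 1 library, B1 ranged from 0.11 to 0.45, B1F from 0.09 to 0.20 and B2 from 0.11 to 0.35, with 0 names called in each. With HRS against input DESeq2 called 25 of 291 names, B1F (0.28) among them. Leaving out 1 library gave 0 to 70 names, B1 at 0.18 to 0.48, B1F at 0.24 to 0.33 and B2 at 0.16 to 0.36. With Loop against input, B1 reversed to -0.026 and B2 to -0.050 on repeat table totals. On fragment totals B1, B1F and B2 reversed to -0.19, -0.078 and -0.21 with 27 names called, and with the letter as a term and D12 left out to -0.17, -0.071 and -0.22. DESeq2 called 37 names, and leaving out 1 library gave 0 to 116 names, B1 at -0.13 to 0.13 and B2 at -0.12 to 0.11. Between the letters B1F reversed to -0.023 on fragment totals, and leaving out 1 library gave 47 to 100 names and B2 at 0.41 to 0.45. The cause of these changes was not tested. The B1F to B1 ratio of HRS over Loop reversed to 0.15 within letter B and ranged from -0.27 to 0.0047 with 1 library left out, and of HRS over input from -0.15 to 0.12. The B2 to B1 ratio reversed to 0.074 within letter B and ranged from -0.10 to 0.020 (HRS over Loop), -0.12 to 0.0028 (HRS over input) and -0.045 to 0.021 (Loop over input). Same-numbered HRS and Loop tables correlated at -0.29, -0.679 and -0.279 in their deviations from the group means, and each such pair has opposite letters, so the numbers were not taken as pairs. With the replicate number as a block the log2 ratios of HRS over Loop were 0.24, 0.15 and 0.20 for B1, B1F and B2, with 0 names called.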
